A study of Rattus norvegicus with 6 samples.

Results

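The sites described here are the REST ChIP-seq peaks whose nearest gene encodes an ion channel or a channel subunit, in HCN cells kept quiescent (iQNP) or proliferating (TAP). A site was counted when the gene name in the authors' annotation began with Kcn, Scn, Cacn, Hcn, Cng, Trp, Clcn, Ano or Asic, which left 74 of the 1775 iQNP sites, at 53 genes, and 46 of the 778 TAP sites, at 38 genes. HCN cells are a neural stem cell line taken from the hippocampus of the adult rat. iQNP cells were grown in FGF2 with BMP4, and TAP cells in FGF2 without BMP4. Each condition had 1 library with a commercial REST antibody, 1 library with a mix of homemade REST antibodies, and 1 input library of DNA that was not precipitated. The deposited values are the tags (aligned reads) at each peak, and the normalized tags are tags per 10000000 of the library. Nothing in the labels names separate cultures, so the spread within a condition is that of these 2 libraries, the change of antibody included.

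REST, the RE1-silencing transcription factor, is a zinc finger repressor that binds a long DNA element named RE1 and recruits enzymes that keep neuronal genes silent outside mature neurons. Ion channels are membrane proteins that let potassium, sodium, calcium or chloride cross the membrane, and the voltage-gated members shape the action potential of neurons and muscle. The gene of a brain sodium channel, type II, is among the classic RE1 targets. A ChIP-seq site says where REST was bound, not whether the nearest gene was expressed or changed.

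Channel genes accounted for 4.17% of all sites in iQNP (95% Wilson interval, 3.33 to 5.20). Their share in TAP was 5.91% (4.46 to 7.80), and these intervals take in counting error over sites and nothing else. All but 1 of the 14 channel families searched had a site, the exception being the Clcn chloride channels, of which the RefSeq gene table lists 9. The table lists 193 genes of these families, and 28.0% of them had a site in either condition. A total of 37 genes had a site in both conditions, 16 in iQNP alone and 1, Kcnc1, in TAP alone. Of the 53 genes bound in iQNP, 69.8% were bound in TAP as well (56.5 to 80.5), against 46.7% of all genes named at iQNP sites. Most channel genes had a single iQNP site (44 genes), and 9 genes with several sites held 30 of the 74.

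Channel sites carried more tags than the typical site. The median was 24.7 normalized tags in iQNP, against 17.9 over all iQNP sites, and 15.5 in TAP, against 12.6 over all TAP sites. In iQNP, 49 of the 74 channel sites lay above the median of all sites, and in TAP 31 of 46. The median fold over input at channel sites was 32.5 for the commercial antibody and 21.3 for the homemade mix in iQNP. In TAP it was 21 and 19.6. Input tags, scaled to the ChIP library, had medians from 1.8 to 2.8 at channel sites and never exceeded 9.0. The commercial antibody gave more tags at 68 of the 74 iQNP and 36 of the 46 TAP sites, and its median log2 ratio to the homemade antibodies was 0.46 in iQNP and 0.36 in TAP. Over all sites these medians were 0.40 and 0.25. In units of 1000000 tags, library depths lay between 25.2 and 29.8, and the lowest count at a channel site was 14 tags in any library.

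**Figure D1:**
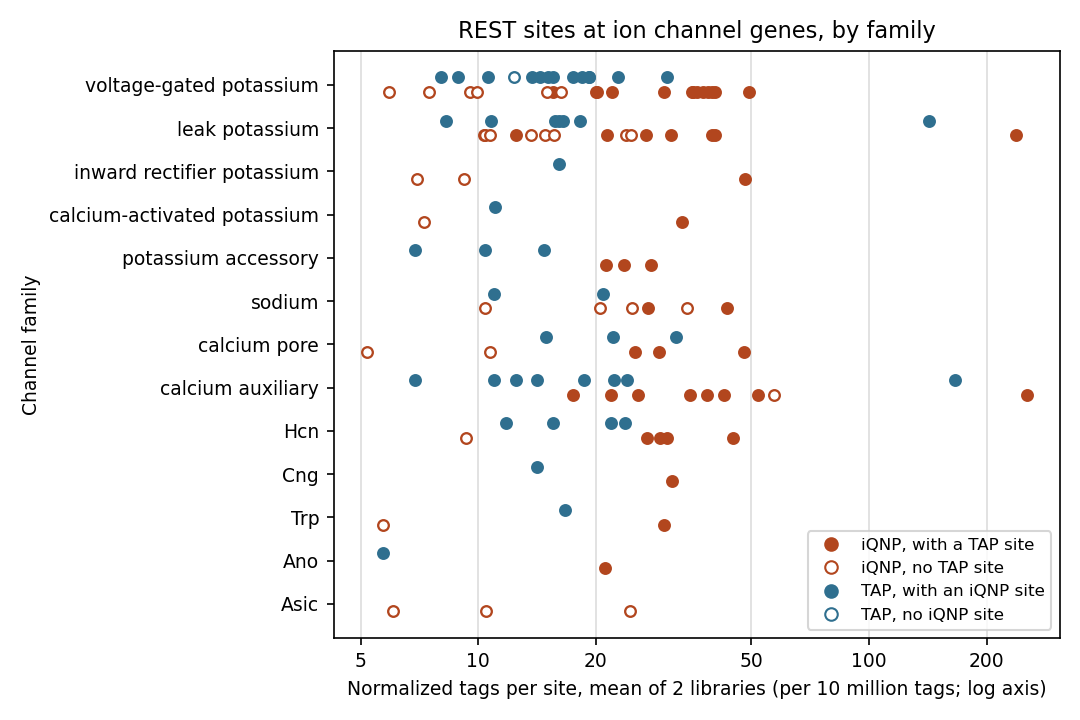
Normalized tags (mean of the 2 libraries, per 10000000 tags, log axis) of every site at a channel gene, with 1 row per channel family, iQNP in red and TAP in blue. Filled points have a site of the other condition within 50 bp and open points do not, and the points farthest to the right are the sites near Cacng2, at 253.6 in iQNP, and Kcnk9, at 237.6.

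By position, channel sites were often in introns. Introns held 33 of the 74 iQNP sites (44.6%), against 26.03% of all iQNP sites, and 21 of the 46 TAP sites (45.7%), against 30.6%. Of these, 22 iQNP and 15 TAP sites lay in a first intron. Only 5 iQNP and 4 TAP sites carried the label promoter-TSS, which is 6.76% and 8.70%, against 14.8% and 8.23% of all sites. By distance from the transcription start site (TSS), 11 iQNP channel sites lay within 1000 bp, 17 between 1000 and 10000 bp, 27 between 10000 and 100000 bp, and 19 farther away. The farthest sites are the least sure to belong to the named gene. With only sites within 10000 bp counted, 28 iQNP and 20 TAP sites were left. Sites were split evenly about the start, with 37 iQNP sites upstream and 37 downstream, and 23 and 23 in TAP.

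A TAP site with its centre within 50 bp was found for 45 of the 74 iQNP channel sites, or 60.8% (49.4 to 71.1), against 42.6% of all 1775 iQNP sites. The centres of these 45 shared sites differed by a median of 7.0 bp and by 35.5 bp at most, and 35 pairs were left when the limit was 25 bp, which is 47.3% of the iQNP sites. Pairing followed the number of tags. Of the 17 channel sites with up to 12 normalized tags in iQNP, 0 had a partner, and of all iQNP sites in that range 2.33% had one. Between 12 and 25 tags, 11 of 21 channel sites had a partner (52.4%, 32.4 to 71.7), against 42.2% of all sites. Between 25 and 50 tags, 31 of 32 had one (96.9%, 84.3 to 99.4), against 81.4%. The member without a partner in that range was the site upstream of Scn2a1. Above 50 tags, 3 of 4 had one, the exception being the site near Cacng5.

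**Figure D2:**
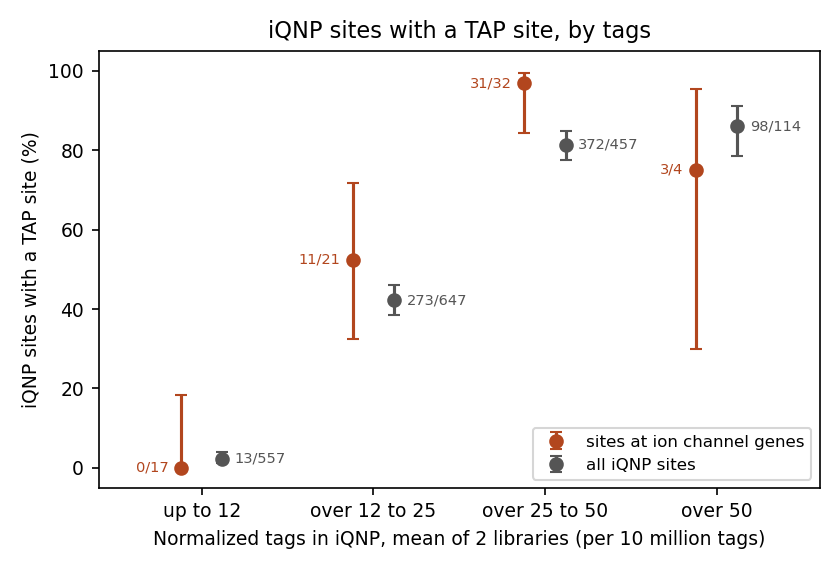
Share of iQNP sites with a TAP site within 50 bp (vertical axis, percent) in 4 ranges of normalized tags in iQNP (horizontal axis), for channel sites in red and all iQNP sites in grey, with 95% Wilson intervals and the counts beside each point. The share rose with tags in both lists up to 50 tags, from 0 of 17 to 31 of 32 for channel sites, and the intervals of the 2 lists overlapped in all 4 ranges.

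The 29 iQNP channel sites without a partner had a median of 10.4 normalized tags, against 17.9 over all iQNP sites. They ranged from 5.18 to 57.1, and 17 of them were under 12. TAP tags under such sites were not analysed here, so that a site without a partner is a site not called in TAP, not a site shown to be unbound. The 5 with the most tags were near Cacng5, Scn2a1, Scn3b, Kcnk9 and Asic2, and their values are given with their families below.

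The 45 shared channel sites had a median log2 ratio of 0.96, iQNP over TAP, when libraries were scaled by depth, and the same sites had a median of -0.10 under TMM, a scaling that sets the typical change over all shared sites to about 0. TMM moved the median log2 fold change of all 756 shared sites from 1.05 to -0.01. No library measures how much REST was bound in all, so these data cannot tell apart a general difference between conditions and a difference in the yield of the ChIP. By antibody the median was 1.11 (commercial) and 0.84 (homemade), and the SD of these 2 values was 0.19. Median normalized tags at these sites were 31.2 (iQNP) and 15.6 (TAP). The members ranged from 0.12 to 1.89, and 25 of the 45 lay at or below the median of all shared sites.

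By edgeR's quasi-likelihood test, fitted to the counts of all 756 shared sites and scaled by depth, 30 of the 45 shared channel sites (66.7%) passed an adjusted p of 0.05 with more tags in iQNP, where 68.4% of all 756 shared sites were called, and 0 had more in TAP, also 0 at an unadjusted p under 0.05 and 0 by DESeq2 with the same depths. The share of channel sites called was therefore close to the background. Under TMM, 2 channel sites passed toward iQNP and 5 toward TAP, where 5.16% and 6.75% of all shared sites were called. The 4 libraries carry the same antibodies in each condition, and the fit above has no term for the antibody. With the antibody as a block, 41 of the 45 passed toward iQNP (94.8% of all shared sites) and 0 toward TAP, the sites that did not pass being those of Cacng3, Hcn3, Cacna1b and Kcnh4. With the block and TMM together, 3 passed toward iQNP and 6 toward TAP, where 6.35% and 8.6% of all shared sites were called. DESeq2 called 28 toward iQNP with the depths (67.3% of all shared sites) and, with its own size factors, 0 in either direction (0.132% in each). Among the 599 shared sites with at least 20 tags in every library, 66.1% passed by edgeR with the depths, and 25 of the 40 channel sites did. The adjusted p with the block is given below where it changed a call. The count also rested on single libraries, in fits where the library left alone in its condition is assumed to vary like the others. It was 20 of 45 without the iQNP library of the commercial antibody (54.5% of all shared sites) and 39 without the iQNP library of the homemade antibodies (94.7%). Leaving out a TAP library likewise leaves a single library in its condition, as leaving out an iQNP library does. For the fits without a TAP library, median log2 fold changes are given here. The range of counts over all fits with a library left out is given in the closing section. Without the commercial TAP library the median log2 fold change was 1.15 at channel sites and 1.18 over all shared sites. Without the homemade TAP library the medians were 0.82 and 0.94. With 2 libraries against 2, an exact permutation test could not go below a two-sided p of 0.333. Both iQNP libraries lay above both TAP libraries at 38 of the 45 channel sites (84.4%), against 92.7% of all shared sites. The 7 sites whose libraries met or overlapped were those of Kcnh4, Cacna1b, Hcn3, Cacng3 and Trpm3, the site downstream of the Kcnd3 start and the upstream Cacng2 site.

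**Figure D3:**
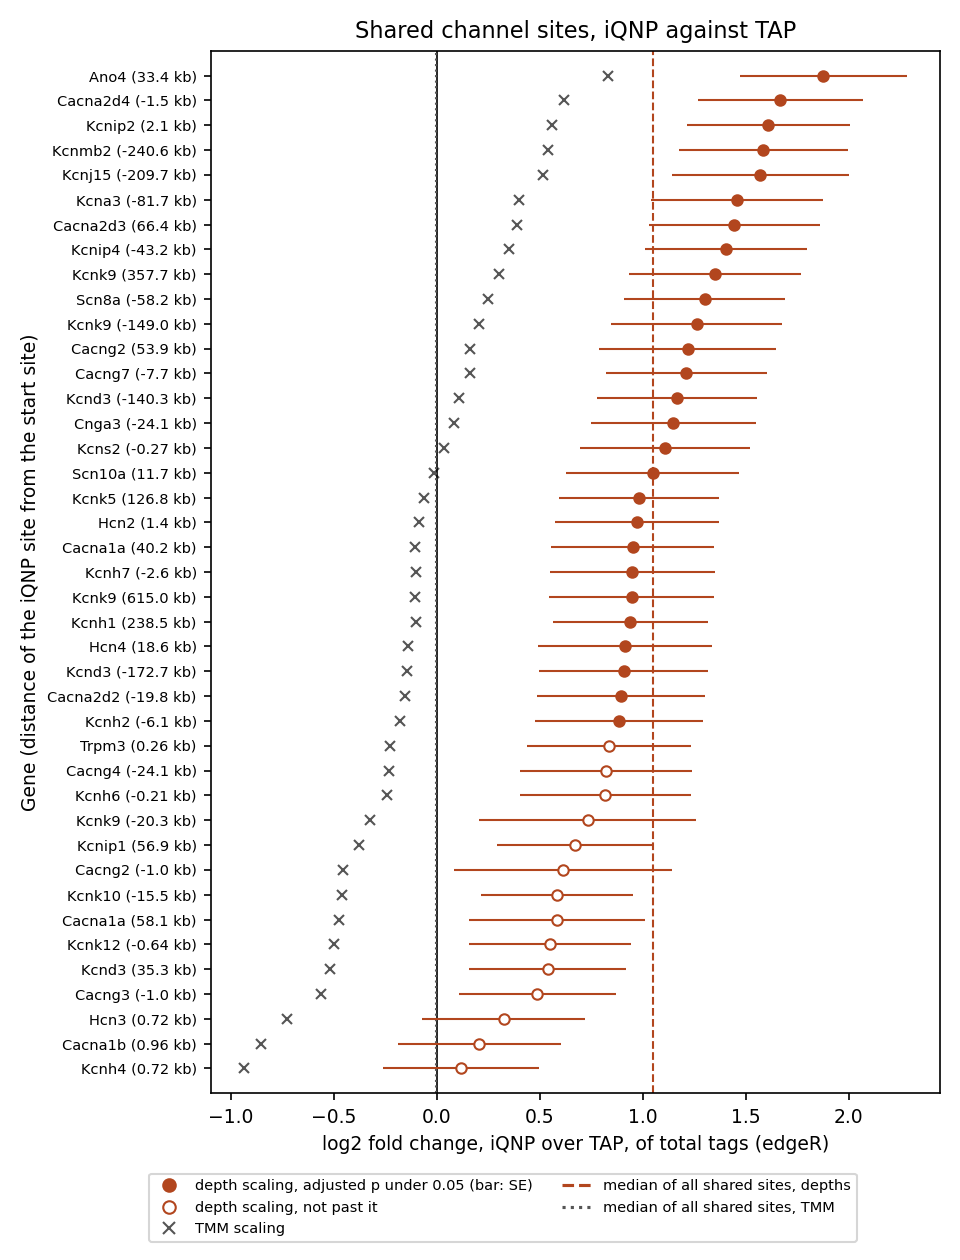
Log2 fold change of iQNP over TAP (horizontal axis) at 41 of the 45 shared channel sites (vertical axis, gene and distance from its TSS), with circles for the scaling by depth (bars are SE, filled past an adjusted p of 0.05) and crosses for TMM. All circles lie above 0, from 0.12 at Kcnh4 to 1.88 at Ano4, while 25 crosses lie below 0, and the dashed and dotted lines mark the medians of all shared sites, 1.05 and -0.01.

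Voltage-gated potassium channels open when the membrane depolarizes and bring it back to rest. They were the family with the most bound genes, 14 in iQNP and 11 in TAP of the 41 listed, with 19 and 14 sites, of which 13 were shared. The Kcnh genes, which encode the ether-a-go-go, erg and elk channels, stood out by number: 7 of the 8 had an iQNP site and 5 had a TAP site. By comparison, sites were found at 2 of the 8 Kcna, 1 of the 4 Kcnd, 1 of the 3 Kcns and 0 of the 2 Kcnb genes in iQNP. All 13 shared sites had a log2 fold change above 0 with the depths, with a median of 0.94, and 9 passed the test, a share near the 68.4% of all shared sites. Under TMM the median was -0.10, and 1 site passed in each direction.

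Kcnh6, which encodes an erg channel, had its site in the promoter, on chromosome 10 from 95400616 to 95400683 (rn4), with its centre 212 bp upstream of the TSS. In iQNP the site had 50 normalized tags for the commercial and 30.6 for the homemade antibodies, the order kept below for all pairs of values, against 25.7 and 19.9 in TAP. The iQNP libraries lay above the TAP libraries, but the log2 fold change of 0.82 ± 0.42 (SE) did not pass the test without the antibody (edgeR adjusted p = 0.0671). It passed with the antibody as a block (adjusted p = 0.000109), and was -0.24 under TMM. The promoter of Kcnh6 in the RefSeq table (GRCr8, chromosome 10, 91449401 to 91449700, plus strand) runs from 250 bases before to 50 after the start. It is printed here because a site lay within 1000 bp of the rn4 TSS and both parts of an RE1 were found in the window. The bound site and the window come from different assemblies, and whether they are the same place was not tested. Capitals mark CAGCACC and GGACAG, the left and right parts of an RE1, which stand without a mismatch 7 bases apart, starting 204 bases before the start.
Kcnh6: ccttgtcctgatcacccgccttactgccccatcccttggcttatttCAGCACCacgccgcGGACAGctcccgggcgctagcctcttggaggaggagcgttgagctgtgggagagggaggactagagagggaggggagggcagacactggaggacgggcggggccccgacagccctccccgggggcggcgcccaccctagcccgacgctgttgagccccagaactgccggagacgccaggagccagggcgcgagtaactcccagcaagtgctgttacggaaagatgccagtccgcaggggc
This spacing was looked for after the window had been seen, and 26 of the 33469 promoters in the table (0.0777%), those of Kcnh6 and Kcnh5 among them, held both parts on the same strand more than 2 and up to 12 bases apart. With the usual spacing of 2 bases of any kind and up to 2 mismatches in the 13 fixed letters, searched on both strands, 1.96% of all promoters and none of the 8 bound genes with a site within 1000 bp and a promoter in the table had a match.

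The other Kcnh sites lay in and around the gene. Kcnh4, an elk channel gene, was bound in intron 1, 718 bp downstream of the TSS, with 23.4 and 16.8 normalized tags in iQNP, against 20.6 and 16.3 in TAP. These libraries overlapped, and the log2 fold change of 0.12 ± 0.38 (SE, edgeR adjusted p = 0.757) was the lowest of the 45, at -0.93 under TMM, where it passed the test with an adjusted p of 0.000853. Kcnh8, another elk channel gene, had a site in intron 1, 878 bp downstream, with 8.87 and 6.04 normalized tags in iQNP, and no TAP site. Kcnh2, the erg gene known for cardiac repolarization, had a shared site 6062 bp upstream, and Kcnh7 one 2570 bp upstream. Kcnh1 had sites in intron 9, of which 1 was shared, and Kcnh5 a site 47.2 kb upstream in iQNP.

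Kcnc1, whose channel allows fast firing, held the only TAP channel site without an iQNP partner. That site lay in the first exon, in the part annotated as untranslated, on chromosome 1 from 96928504 to 96928602, with 13.6 and 11.1 normalized tags from 35 and 28 total tags, and a fold over input of 12.9 and 15.8. The nearest iQNP site was 375 kb away.

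Kcnd3 encodes a channel of the A-type current, which delays firing. It had 4 iQNP sites over 208 kb, of which 3 were shared. The site 172.7 kb upstream had 41.5 and 30.9 normalized tags in iQNP, against 22.2 and 16.3 in TAP. That at 140.3 kb upstream had 26.3 and 13.8 in iQNP, and 7.78 and 9.93 in TAP, so that the antibodies differed in order between conditions. The log2 fold changes of these sites were 0.91 ± 0.41 and 1.17 ± 0.39 (SE, edgeR adjusted p = 0.0416 and 0.00779) with the depths, and -0.15 and 0.11 under TMM. The intron 2 site, 35.3 kb downstream, had 28.0 and 16.1 in iQNP, against 17.9 and 12.3 in TAP, with overlapping libraries and 0.54 ± 0.38 (adjusted p = 0.174, or 0.0332 with the antibody as a block), or -0.52 under TMM. The fourth, with 11.4 and 8.39 in iQNP, had no TAP site.

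Kcns2 encodes a silent subunit that modifies other potassium channels, and its promoter site, 266 bp upstream, had 52.5 and 22.8 normalized tags in iQNP, against 19.1 and 15.9 in TAP. Its log2 fold change was 1.11 ± 0.41 (SE, edgeR adjusted p = 0.0161) with the depths and 0.04 under TMM. Kcna3 was bound 81.7 kb upstream in both conditions, and Kcna10, with a mean of 5.89 tags, in iQNP alone. Kcnq3, a subunit of the M-current channel that restrains repetitive firing, had an intron 3 site in iQNP alone.

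Leak potassium channels of the Kcnk genes set the resting potential. Of 14 listed genes, 5 were bound in iQNP and 4 in TAP, with 15 and 7 sites, and 11 of the iQNP sites were nearest to Kcnk9, which encodes an acid-sensitive leak channel. These 11 sites spread over 1491 kb of chromosome 7, from 1342 kb downstream to 149.0 kb upstream of the Kcnk9 TSS. Of them, 3 lie in introns of Trappc9 and the others are labelled intergenic, so that the assignment of all 11 to Kcnk9 rests on the nearest start alone. The strongest, on chromosome 7 from 110287868 to 110287922 and 20.3 kb upstream, had 290.2 and 185.0 normalized tags in iQNP, against 168.4 and 117.1 in TAP, the rank of 7 among all iQNP sites and 6 among all TAP sites. The other iQNP sites ranged from 10.4 to 40.3, and the shared ones in TAP from 15.8 to 16.5.

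At the strongest Kcnk9 site the conditions did not overlap, but the log2 fold change of 0.73 ± 0.53 (SE) did not pass the test without the antibody (edgeR adjusted p = 0.18). Within antibody the log2 ratios were 0.79 and 0.66, the site passed with the antibody as a block (adjusted p = 0.0046), and the log2 fold change was -0.33 under TMM. The remaining shared Kcnk9 sites passed the test with the depths (edgeR adjusted p from 0.00478 to 0.0308), at 1.35 ± 0.42, 1.26 ± 0.42 and 0.95 ± 0.40 (SE) for those 357.7 kb downstream, 149.0 kb upstream and 615.0 kb downstream, and were at 0.30, 0.20 and -0.11 under TMM. In the site 357.7 kb downstream the commercial antibody gave more tags than the homemade in iQNP, 44.0 against 36.6, and fewer in TAP, 12.8 against 18.7. The Kcnk9 site with the most tags and no TAP partner, 97.8 kb upstream, had 28.0 and 21.2 in iQNP. Without the sites nearest to Kcnk9, 65.1% of the iQNP channel sites had a TAP site.

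**Figure D4:**
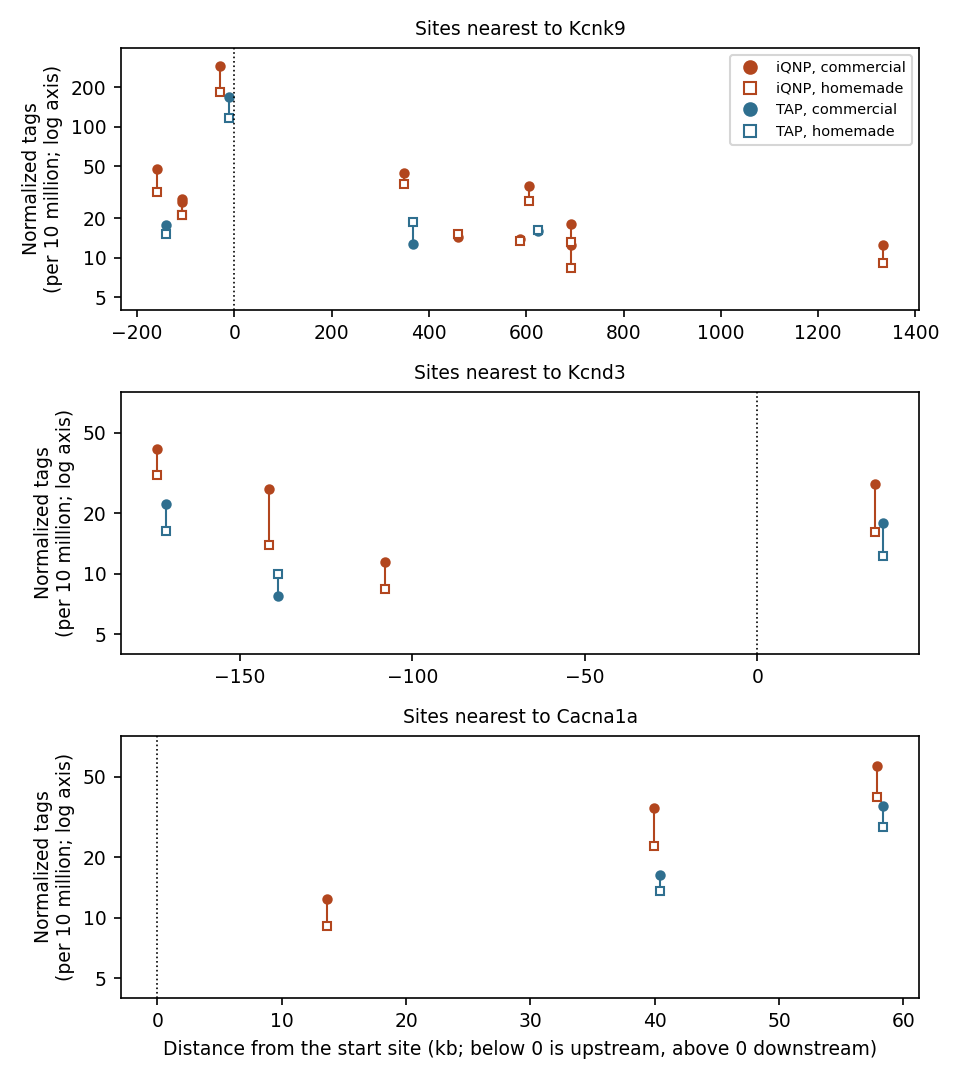
Normalized tags per library (vertical axis, per 10000000 tags, log axis) against distance from the TSS (horizontal axis, kb, negative upstream) for the genes with 3 or more iQNP sites, with circles for the commercial and squares for the homemade antibodies, iQNP in red and TAP in blue, set slightly apart. At Kcnk9 the site 20.3 kb upstream stands above the other sites in all 4 libraries, with 117.1 tags or more.

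Among the other Kcnk genes, Kcnk12 was bound in its promoter, 636 bp upstream, with 29.8 and 23.8 normalized tags in iQNP, against 21.8 and 14.7 in TAP. Its log2 fold change was 0.55 ± 0.39 (SE, edgeR adjusted p = 0.178, or 0.0166 with the antibody as a block), and -0.50 under TMM. Kcnk3, another acid-sensitive channel gene, had a promoter site 89 bp upstream in iQNP alone, with 10.6 and 10.1 normalized tags from 30 and 30 total tags and an input of about 1 tag. Kcnk5 and Kcnk10 had shared sites 126.8 kb downstream and 15.5 kb upstream of their start sites.

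The remaining potassium channel genes were bound singly. Inward rectifiers pass potassium more easily into the cell than out of it, and 3 of 15 Kcnj genes were bound in iQNP and 1 in TAP. The Kcnj15 site, 209.7 kb upstream, averaged 48.1 normalized tags in iQNP and 16.1 in TAP, and the Kcnj6 site, found in iQNP alone, lay 28.6 kb from it, with neither near its TSS. Calcium-activated channel genes had a shared site 240.6 kb upstream of Kcnmb2, a regulatory subunit, and an iQNP site in intron 2 of Kcnn2. The Kcnip genes encode calcium-binding proteins that bind the Kcnd channels, and 3 of the 4, Kcnip1, Kcnip2 and Kcnip4, had a shared site each, with means from 21.2 to 27.7 in iQNP. Those of Kcnip2 and Kcnip4 had log2 fold changes of 1.61 ± 0.40 and 1.40 ± 0.39 (SE, edgeR adjusted p = 0.000752 and 0.002) with the depths. Under TMM they were 0.56 and 0.35, and neither passed the test. That of Kcnip1 was 0.67 ± 0.38 (SE, edgeR adjusted p = 0.0951, or 0.00615 with the antibody as a block), and -0.38 under TMM.

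Voltage-gated sodium channels start the action potential. Sodium channel genes had 6 sites at 5 of 18 listed genes in iQNP, and 2 sites in TAP, at Scn8a and Scn10a. Scn2a1, the type II channel gene, had no TAP site, although its upstream site was among the strongest without a partner. That site lay on chromosome 3 from 47587255 to 47587332, 1119 bp upstream of the TSS, with 40.1 and 28.5 normalized tags in iQNP from 113 and 85 total tags. The nearest TAP site was 2431 kb away. A second Scn2a1 site in intron 1 had 11.4 and 9.40 normalized tags. Scn3b, a beta subunit gene, was bound in intron 1, 493 bp downstream, with 26.3 and 23.2 in iQNP and no TAP site. The shared sites of Scn10a, a channel of sensory neurons, and Scn8a had means of 43.3 and 27.2 in iQNP against 20.8 and 10.97 in TAP, with log2 fold changes of 1.05 ± 0.42 and 1.30 ± 0.39 (SE, edgeR adjusted p = 0.0234 and 0.00385), or -0.01 and 0.25 under TMM. Scnn1g, which belongs to an epithelial channel that is not voltage-gated, had an iQNP site 4532 bp upstream.

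Voltage-gated calcium channels couple depolarization to transmitter release and other calcium signals. Of the 10 pore genes listed, Cacna1a, Cacna1b and Cacna1e were bound in iQNP, which encode the P/Q-type, N-type and R-type channels. Cacna1a had 3 iQNP sites, in introns 3 and 1. The intron 3 site, 58.1 kb downstream, had 56.4 and 39.6 normalized tags in iQNP, against 35.8 and 28.2 in TAP. With the depths its log2 fold change of 0.58 ± 0.43 (SE, edgeR adjusted p = 0.19) did not pass the test, with the antibody as a block it did (adjusted p = 0.00182), and under TMM it was -0.47, past the test in the other direction (adjusted p = 0.0362). The intron 1 site 40.2 kb downstream had 35.1 and 22.8 in iQNP, against 16.3 and 13.5 in TAP, with 0.95 ± 0.40 (adjusted p = 0.0292), or -0.11 under TMM. The site 13.9 kb downstream, had 12.4 and 9.07 in iQNP and no TAP site.

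Cacna1b was bound in intron 1, 963 bp downstream of the TSS, and its antibodies went opposite ways. The commercial antibody gave 31.2 normalized tags in iQNP and 22.9 in TAP, and the homemade antibodies gave 19.1 and 21.4. This was the only shared channel site not higher in iQNP with both antibodies. The log2 fold change was 0.21 ± 0.39 (SE, edgeR adjusted p = 0.605), and -0.85 under TMM (adjusted p = 0.00127). Cacna1e had the weakest iQNP channel site, with 5.32 and 5.04 normalized tags.

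Auxiliary calcium channel genes had the highest median of tags of any family in iQNP, 38.5, but not in TAP, where it was 16.4. Of 16 listed genes 8 were bound in iQNP and 7 in TAP, and 8 of the 9 iQNP sites were shared. The Cacng genes, of which 5 of 8 were bound, are named after a calcium channel subunit, but many of their products, such as stargazin from Cacng2, carry AMPA-type glutamate receptors to the synapse. The site upstream of Cacng2, on chromosome 7 from 116038861 to 116038926, had the most tags of all channel sites in both conditions, with rank 5 of 1775 in iQNP and rank 4 of 778 in TAP. It had 316.1 and 191.0 normalized tags in iQNP, against 191.0 and 141.0 in TAP, so that the homemade iQNP library only equalled the commercial TAP library. The log2 fold change was 0.61 ± 0.53 (SE, edgeR adjusted p = 0.261, or 0.0269 with the antibody as a block) with the depths, and -0.46 under TMM (adjusted p = 0.0396). The site was labelled intergenic in iQNP at 1003 bp from the TSS and promoter-TSS in TAP at 1000 bp, so that the same place carries both labels. A site in Cacng2 intron 1, 53.9 kb downstream, had 61.7 and 42.0 in iQNP, against 21 and 23.4 in TAP, with a log2 fold change of 1.22 ± 0.43 (adjusted p = 0.0116), or 0.16 under TMM.

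Cacng5 had the strongest channel site without a TAP partner, on chromosome 10 from 97347623 to 97347677, 38.6 kb upstream of the TSS. It had 70.6 and 43.6 normalized tags in iQNP from 200 and 130 total tags. The nearest TAP site, 109 kb away, was that of Cacng4, which had 49.7 and 35.3 normalized tags in iQNP, against 28.8 and 19.1 in TAP. The log2 fold change at Cacng4 was 0.82 ± 0.42 (SE, edgeR adjusted p = 0.0674, or 5.07e-05 with the antibody as a block), and -0.23 under TMM. Cacng7 was named for a shared site 7653 bp upstream of its TSS. The Cacna2d genes encode the subunits that bring the pore to the membrane, and 3 of the 4 had a shared site. Cacna2d4 was among the 3 highest by log2 fold change, with 26.6 and 17.1 normalized tags in iQNP, against 7.0 and 6.75 in TAP, a log2 fold change of 1.67 ± 0.40 (SE, edgeR adjusted p = 0.000636) and 0.62 under TMM, which did not pass the test (adjusted p = 0.123). None of the 4 Cacnb genes had a site.

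Cacng3 was bound 1016 bp upstream of its rn4 start, with 20.2 and 14.8 normalized tags in iQNP, against 16.3 and 8.74 in TAP. Its promoter in the RefSeq table (GRCr8, chromosome 1, 186632312 to 186632611, plus strand) was chosen for its motif. It holds 2 RE1 matches of up to 2 mismatches, in capitals. Of the 37 bound genes in the table, 3 had such a match, Cacng3, Kcnd3 and Kcnip1, against 1.96% of all 33469 promoters. Whether these shares differ was not tested. The nearest iQNP sites of Kcnd3 and Kcnip1 lay 35257 and 56934 bp from their rn4 start sites, far from a promoter window. The bound Cacng3 site and its window come from different assemblies, whose start sites were not compared, and whether they are the same place was not tested.
Cacng3: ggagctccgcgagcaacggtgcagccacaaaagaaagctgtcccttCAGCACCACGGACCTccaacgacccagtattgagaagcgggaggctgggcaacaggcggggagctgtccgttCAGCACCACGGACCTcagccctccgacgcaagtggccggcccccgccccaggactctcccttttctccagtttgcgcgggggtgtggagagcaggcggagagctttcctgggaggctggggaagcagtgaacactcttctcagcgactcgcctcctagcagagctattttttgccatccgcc

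Hcn channels open on hyperpolarization and carry the pacemaker current. Hcn2, Hcn3 and Hcn4 were bound in both conditions, each in intron 1. Hcn2 had 36.9 and 23.8 normalized tags in iQNP, against 17.9 and 13.1 in TAP. Its conditions did not overlap, and the log2 fold change was 0.97 ± 0.40 (SE, edgeR adjusted p = 0.0271) with the depths, and -0.09 under TMM.

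Hcn4, bound 18.6 kb downstream, had more tags than Hcn2 and Hcn3, 51.4 and 38.3 in iQNP, against 29.2 and 18.3 in TAP. Its log2 fold change was 0.91 ± 0.42 (SE, edgeR adjusted p = 0.0449), or -0.14 under TMM. A second Hcn4 site 35.1 kb upstream, with 8.51 and 10.1, was found in iQNP alone. Hcn3, bound 718 bp downstream, had the closest values, with 29.8 and 24.2 normalized tags in iQNP, against 24.9 and 18.7 in TAP. The libraries overlapped, and the log2 fold change of 0.32 ± 0.40 (SE, edgeR adjusted p = 0.424) became -0.73 under TMM (adjusted p = 0.00794).

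The remaining families had few sites. Cyclic nucleotide-gated channels serve light and odour sensing, and the cone gene Cnga3 had a shared site 24.1 kb upstream with means of 31.4 in iQNP and 14.2 in TAP. Of 22 Trp genes, Trpm3 and Trpm2 were bound. The Trpm3 site, 257 bp downstream in intron 1, had 40.1 and 19.8 normalized tags in iQNP, against 19.8 and 13.5 in TAP, with 0.84 ± 0.40 (SE, edgeR adjusted p = 0.0516, or 0.000589 with the antibody as a block) with the depths and -0.23 under TMM. Trpm2 had a promoter site in iQNP alone, with 5.68 and 5.71. Ano4, of the anoctamins, had the largest log2 fold change of the 45, in intron 1, with 23.8 and 18.5 normalized tags in iQNP, against 5.83 and 5.56 in TAP, 1.88 ± 0.40 (SE, edgeR adjusted p = 0.000164) with the depths and 0.83 under TMM (adjusted p = 0.0326). Acid-sensing channel genes had iQNP sites alone, of which the Asic2 intron 1 site with 28.0 and 20.8 was the strongest.

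Seen by position, shared channel sites within 1000 bp of a TSS had the smallest median ratio. The median log2 ratio of normalized tags was 0.55 at these 7 sites, against 0.86 at the 113 shared sites of all genes within 1000 bp. Over 100000 bp from a TSS the medians were 1.18 at 9 channel sites and 1.19 at 239 shared sites. Of the 7 sites, that of Kcns2 was the only one to pass the test with the depths, where 68.4% of all 756 shared sites passed. Kcnh4, Hcn3 and Cacna1b lay within 1000 bp downstream of the start, in intron 1. They were 3 of the 5 channel sites that passed toward TAP under TMM, where 6.75% of all shared sites did. With the antibody as a block, Trpm3, Kcnh6 and Kcnk12 passed toward iQNP as well, where 94.8% of all shared sites did. Whether near and far sites differ in this way over samples was not tested.

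Genes outside these names whose products work with channels were counted from a list. Of its 41 genes, 6 had an iQNP site and 3 had a TAP site. Snap25, a protein of vesicle release that binds calcium channels, had an intronic site 603 bp downstream with 122.7 and 69.2 normalized tags in iQNP, against 59.5 and 44.1 in TAP. Gjd2, a neuronal gap junction gene, had 26.6 and 26.9 in iQNP, against 13.6 and 10.7 in TAP. Dpp6, a partner of the Kcnd channels, had 2 shared sites, with means of 20.2 and 18.4 in iQNP, against 10.6 and 7.26 in TAP. Unc79, of the sodium leak channel complex, and Fgf12 and Fgf14, which bind sodium channels, were bound in iQNP alone, with means from 5.70 to 18.9.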

How the data were processed

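REST ChIP-seq peak tables of HCN cells were analysed, with 2 ChIP libraries and 1 input in each of the iQNP and TAP conditions. Per the labels and the submitters' processing notes, the reads were aligned to rn4 with Bowtie2 and peaks were called with HOMER against the input (versions are not given in the sources used here). The authors' limit was a Poisson p-value of 1e-04, and peaks of the antibodies less than 50 bp apart were merged, so that each site was called in both libraries of its condition. Total tags per site are counts as deposited. Normalized tags are a signal that the authors scaled to 10000000 tags per library, and the deposited input tags are a signal scaled to the ChIP library. Fold over input is a ratio, deposited with its p-value. Nearest gene, position and distance come from the authors' annotation, joined by peak name, and 1 repeated row per condition was dropped. Per the labels, antibody 1 is the commercial one and antibody 2 the homemade mix. Columns were matched to libraries by the number 1 or 2 in the column headers, taken to be the antibody number of the sample titles.

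From these values, iQNP and TAP sites were paired one to one, closest first, with centres within 50 bp. Depth is total over normalized tags. The 756 shared sites were tested with edgeR 4.0.16 in R 4.3.3 (quasi-likelihood test, library sizes set to the depths, no term but condition, Benjamini-Hochberg adjustment over all shared sites). Fold changes are log2 of iQNP over TAP. DESeq2 1.42.0 was an alternative, with TMM, a block on the antibody, stricter limits on p and fold, other pairing distances, and libraries left out. Shares have Wilson intervals. Families, the RE1 letters and the list of 41 other genes were chosen with earlier results of these data known. Values per library are given for the 5 strongest channel sites per condition, the 3 highest and 3 lowest log2 fold changes, sites within 1000 bp of a TSS, sites of one condition alone (all of TAP, the 5 strongest of iQNP), Hcn sites and genes with 3 or more sites, and others are named by family. Promoters are RefSeq GRCr8 and were matched by symbol, with 37 of 54 bound genes in the table. Kcnk3, Kcns2, Scn3b, Kcnk12 and Hcn3 had no promoter entry. A few sites and genes that meet this rule are not reported here. The authors' RNA-seq was not analysed here.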

Additional observations from a re-analysis of the deposited data

How the results depend on the processing

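The count of channel sites kept within 1.5 times its main value under stricter limits on the p-value (69 in iQNP, 45 in TAP) and on the fold over input (65 and 44), and without sites inside another gene (70 and 44). With only sites within 10000 bp of a TSS it was 28 in iQNP and 20 in TAP, and 18 genes in place of 37 had a site in both conditions. A pairing limit of 25 bp gave 47.3% of iQNP channel sites with a TAP site. The median log2 ratio of 0.96 was 0.69 by fold over input, -0.10 under TMM, and between 0.84 and 1.11 with either antibody left out. The count of shared channel sites with more tags in iQNP, 30 with the depths, was 28 by DESeq2 with the depths, 25 of 40 with at least 20 tags in every library, 2 under TMM, 0 by DESeq2 with its own size factors, as was the count toward TAP (1 and 4 at an unadjusted p under 0.05, against 34 and 48 of all 756), and from 0 to 39 with a library left out.

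With the antibody as a replicate block, 41 of the 45 passed toward iQNP, where 94.8% of all shared sites did. The block and TMM together, chosen after seeing the data, gave 3 toward iQNP and 6 toward TAP (6.35% and 8.6% of all shared sites). The antibody number is a shared reagent, not a shared culture, and the block was kept as an alternative. Deviations of same-numbered libraries had a correlation of 0.047 across shared sites. A correlation leaves out any shift common to all sites, so this value cannot decide whether the block is needed. Such a shift was present, as the commercial antibody gave more tags at 83.3% of all iQNP sites and 73.4% of all TAP sites. At the 23 named shared sites, the block and DESeq2 with the depths kept every direction, and the block took 8 more past the threshold.

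TMM turned the sign of 16 of these 23, to -0.086 at Hcn2, -0.11 at the 40.2 kb Cacna1a site and the 615.0 kb Kcnk9 site, -0.14 at Hcn4, -0.15 at the 172.7 kb Kcnd3 site, -0.23 at Trpm3 and Cacng4, -0.24 at Kcnh6, -0.33 at the 20.3 kb Kcnk9 site, -0.46 at the upstream Cacng2 site, -0.47 at the 58.1 kb Cacna1a site, -0.50 at Kcnk12, -0.52 at the 35.3 kb Kcnd3 site, -0.73 at Hcn3, -0.85 at Cacna1b and -0.93 at Kcnh4. The homemade antibodies alone gave -0.16 at Cacna1b. Of all 45 shared channel sites, 26 were below 0 under TMM. TMM centres the shared sites by construction, with the median of all 756 at -0.01. Depth limits the weakest sites, which hold from 14 tags in a library, and counts per site below the peak limits are not listed.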
